A study of Mus musculus with 2 samples.

Results

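Long noncoding RNAs (lncRNAs) and the noncoding host transcripts of small nucleolar RNAs (snoRNAs) were described in parietal cells, which secrete gastric acid. The cells had been sorted from the stomachs of C57BL/6 mice, and the diets compared were a high fat diet (HFD) and a control diet, with 1 library for each (HFD cells and control cells below). The RNA was total RNA depleted of ribosomal RNA, so transcripts without a poly(A) tail were also read. The labels do not give the duration of the diet, the age of the mice, the number of mice behind each library or the sorting markers. With 1 library per diet the difference has no replicate check, and no value below can be tested against the variation between mice.

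The 10 genes were chosen by name from 38087 Ensembl genes in each table. They are Malat1 and Neat1, which are retained in the nucleus, the snoRNA hosts Gas5, Snhg1, Snhg3, Snhg5, Snhg6, Snhg8 and Snhg12, and the imprinted transcript H19. Of these, 7 had an identifier in the tables and 6 were listed above 1 RPKM in both libraries, where RPKM is reads per kilobase of exon scaled to library depth and 1 RPKM is the floor of the tables. H19 was listed at 0 in both. The annotated identifiers of Snhg1, Snhg6 and Snhg8 were not among those of the tables, so these hosts are represented below only by the snoRNA genes inside them.

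An lncRNA acts as RNA and codes for no known protein. Malat1 lies in nuclear speckles, the stores of splicing factors, and Neat1 is the RNA around which paraspeckles assemble. A snoRNA host is transcribed and spliced, the snoRNAs are cut out of its introns, and the remaining spliced transcript is often removed by nonsense-mediated decay. C/D box snoRNAs guide 2'-O-methylation and H/ACA box snoRNAs guide pseudouridylation, mostly of ribosomal RNA. Several hosts begin with a terminal oligopyrimidine (TOP) tract, a start that they share with the mRNAs of ribosomal proteins and that ties translation of those mRNAs to growth signals.

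Within these loci the widest contrasts were in the snoRNA genes, and the sequences of 7 of them are shown as examples. Some of the 7 share a pattern of host and snoRNA, and the host of Snord87 has no value. Gm22357 and Snord47 lie in Gas5, Snora61 and Snord99 in Snhg12, Snora73a in Snhg3, Snord50b in Snhg5 and Snord87 in Snhg6. The sequences are from GENCODE release M21 on GRCm38, written 5' to 3' on the transcribed strand. Capitals mark the first TGATGA (C box) and the last CTGA (D box), or ACA near the 3' end.
Gm22357, chr1:161036057-161036139, plus strand: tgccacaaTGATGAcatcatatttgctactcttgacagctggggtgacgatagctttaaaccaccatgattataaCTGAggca
Snord47, chr1:161038082-161038158, plus strand: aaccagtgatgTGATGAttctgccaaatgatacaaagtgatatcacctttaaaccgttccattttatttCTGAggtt
Snora61, chr4:132310240-132310369, plus strand: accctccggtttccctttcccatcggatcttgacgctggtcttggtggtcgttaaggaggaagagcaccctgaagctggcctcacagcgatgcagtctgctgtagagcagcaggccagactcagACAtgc
Snord99, chr4:132310691-132310764, plus strand: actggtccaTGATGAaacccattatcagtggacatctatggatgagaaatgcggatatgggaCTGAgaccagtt
Snora73a, chr4:132352775-132352979, minus strand: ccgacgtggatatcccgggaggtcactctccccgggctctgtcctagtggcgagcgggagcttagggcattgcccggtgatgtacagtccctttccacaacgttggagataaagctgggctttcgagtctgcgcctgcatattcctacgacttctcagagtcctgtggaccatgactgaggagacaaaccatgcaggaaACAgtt
Snord50b, chr9:88521797-88521868, minus strand: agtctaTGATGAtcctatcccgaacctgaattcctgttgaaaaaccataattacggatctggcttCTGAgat
Snord87, chr1:9942463-9942549, minus strand: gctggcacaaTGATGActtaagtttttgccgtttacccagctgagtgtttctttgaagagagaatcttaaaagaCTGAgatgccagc

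Searched on the transcribed strand, TGATGA in the first 25 bases together with CTGA in the last 20 was found in 17 of the 27 snoRNA genes inside the hosts that had an identifier in the tables. The same pair was found in 20.7% of 1507 annotated snoRNA genes. Of the genes without that pair, 5 of the 27 had ACA in the last 10 bases, against 46.4% of the 1507. The remaining 5 had neither, and a missing match says only that these letters are not in these windows.

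Depth, read off from the smallest steps between values, came to 25.5 M reads in HFD cells, against 9.84 M in control cells. At 1 RPKM, 2 kb of exon corresponded to 50.99 reads in HFD cells, against 19.7 in control cells. Markers of parietal cells summed to 11401 RPKM in HFD cells, against 9288 RPKM in control cells, with 8 of 9 genes higher in HFD cells. Markers of other gastric cells were also listed. Chief cell markers summed to 46051 RPKM in HFD cells, against 102910 in control cells, pit cell markers to 36056 in HFD cells, against 14515 in control cells, and endocrine markers to 1211 in HFD cells, against 8296 in control cells. Pancreatic acinar markers summed to 6.66 RPKM in HFD cells, against 563 in control cells, with 6 of 7 listed at 0 in HFD cells. Leukocyte markers summed to 29.5 RPKM in HFD cells, against 8.13 in control cells, with 4 of the 5 listed higher in HFD cells and Ptprc, Cd3e and Cd79a at 0 in both. Markers of cycling cells summed to 71.5 RPKM in HFD cells, against 189 in control cells, with 1 of 8 higher. Fibroblast markers summed to 46.9 RPKM in HFD cells, against 143 in control cells, and smooth muscle markers to 24.0, against 167. The sums of neck, endothelial and erythroid markers were also lower in HFD cells. The part of these differences in the values below was not tested, and fewer cells of a type cannot be told apart from less RNA per cell.

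Of the 6 listed genes, Snhg12 and Gas5 were over 2-fold higher in HFD cells, Snhg5 was over 2-fold lower, and Malat1, Neat1 and Snhg3 lay within 2-fold. The log2 ratio behind these counts is log2(RPKM + 1) in HFD cells minus the same in control cells, which understates the difference of low genes. As background, 16037 genes were listed in at least 1 library, of which 12.5% passed 2-fold with the HFD library higher and 23.9% with it lower (any difference: 44% higher, 56% lower), and their median log2 ratio was -0.13. For the 885 lncRNA genes among them the shares beyond 2-fold were 26.1% higher and 39.5% lower. For the 404 lncRNA genes listed in both libraries, as the 6 were, 18.1% passed 2-fold with the HFD library higher and 6.68% with it lower (any difference: 62.4% higher, 37.6% lower), and the median was 0.24. Ratios given without a scale are of RPKM with no pseudocount. Their approximate 95% intervals are exact binomial intervals from estimated reads (the product of RPKM, exon length and depth), and they cover counting error only, since the reads carry no molecular identifiers and may repeat a molecule.

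**Figure D1:**
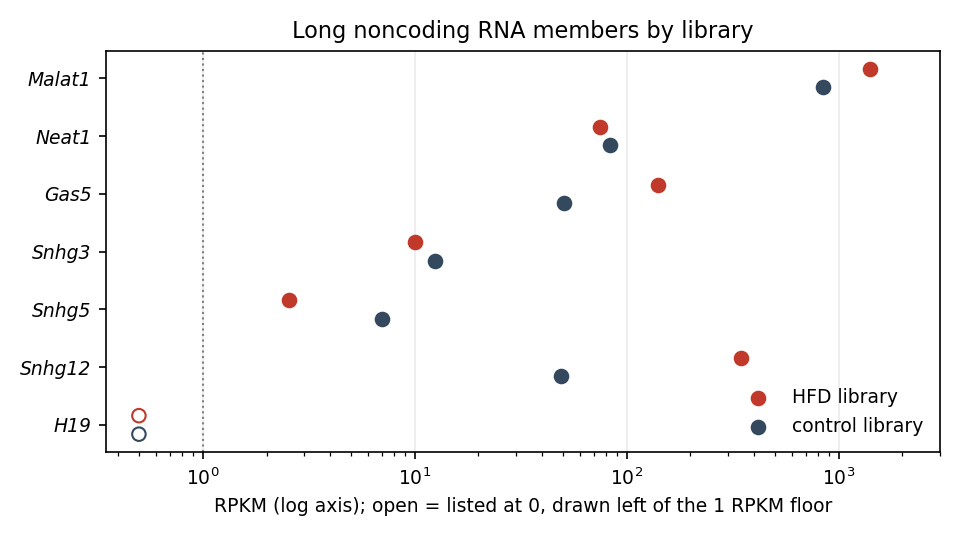
RPKM of each of the 6 listed genes and of H19 in HFD cells and in control cells, on a log10 axis, 1 point per library. H19, listed at 0 in both, is drawn as open points left of the floor of 1 RPKM. Snhg12 shows the widest gap with the HFD library higher, at 345 RPKM in HFD cells, against 49.1 RPKM in control cells, and Snhg5 the widest with the HFD library lower, at 2.55 RPKM in HFD cells, against 7.01 RPKM in control cells.

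Malat1 was the most abundant lncRNA per length in each library. Malat1 (ENSMUSG00000092341, chr19:5795690-5802672, minus strand, GRCm38) is annotated as exon over its whole span and stood at 1403 RPKM in HFD cells, against 840 RPKM in control cells. Its ratio was 1.67 (1.66 to 1.69), with 249737 estimated reads in HFD cells, against 57671 in control cells, a log2 ratio of 0.74. It took 45.6% of the estimated reads of all lncRNA genes in HFD cells, against 39.8% in control cells. The direction was the same under each of the 4 other scalings tried, but the log2 ratio ranged from 0.17 to 1.03 over all settings.

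The direction of Neat1 depended on the scaling. Neat1 (ENSMUSG00000092274, chr19:5824708-5845478, minus strand) lies next to Malat1 and is annotated over the 20771 bases of its long form, so the short and long forms are not separated. It stood at 75.1 RPKM in HFD cells, against 83.3 RPKM in control cells. The ratio was 0.901 (0.885 to 0.918), with a log2 ratio of -0.15. It was 0.14 when the values were scaled to the total of protein-coding genes and -0.71 when the 20 most abundant genes were left out of the total. Per length Malat1 stood 18.7 times as high as Neat1 in HFD cells and 10.1 times as high in control cells. Among lncRNA genes Neat1 ranked 11 by RPKM in HFD cells, against 7 in control cells. The coding gene Frmd8, which lies beside Neat1, stood at 8.50 RPKM in HFD cells, against 5.71 RPKM in control cells.

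The protein partners of Malat1 and Neat1 had medians near those of all genes on the values as deposited. Of 27 paraspeckle protein genes, 14 were higher and 13 lower in HFD cells, with none over 2-fold higher, 2 over 2-fold lower and a median log2 ratio of 0.00. Among them Nono, which binds and stabilises Neat1, stood at 26.8 RPKM in HFD cells, against 25.7 RPKM in control cells, and Sfpq, its partner, at 23.3 RPKM in HFD cells, against 26.9 RPKM in control cells. Dazap1 was the lowest by ratio, at 7.93 RPKM in HFD cells, against 23.5 RPKM in control cells. Of 27 nuclear speckle and SR splicing factor genes, 12 were higher and 15 lower, with a median of -0.10. The scaffold gene of the speckle, Srrm2, stood at 119 RPKM in HFD cells, against 75.8 RPKM in control cells. Of 14 listed genes for RNase P, RNase Z and 3' end processing, the machinery that cuts the 3' ends of both transcripts, 7 were higher and 7 lower, with a median of 0.00. None of these was over 2-fold higher and 2 were over 2-fold lower. With a minimum of 5 RPKM in either library the median of this list was -0.59, against -0.03 for all genes. The medians of all 3 lists were below 0 under some of the settings tried and above 0 under others.

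Snhg12 had the highest ratio of the 6 listed genes. Snhg12 (ENSMUSG00000086290, chr4:132308623-132311024, plus strand) is annotated as exon over its whole span of 2402 bases. It stood at 345 RPKM in HFD cells, against 49.1 RPKM in control cells, a ratio of 7.02 (6.62 to 7.46) and a log2 ratio of 2.79. Among lncRNA genes it ranked 4 in HFD cells, against 11 in control cells. Its estimated reads were 21098 in HFD cells, against 1159 in control cells, or 3.86% of all lncRNA reads in HFD cells, against 0.80% in control cells. Over the other pseudocounts, scalings and filters its log2 ratio was 2.22 to 3.08.

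The 4 snoRNAs inside Snhg12 with an identifier in the tables did not all follow the host. Snora16a stood at 370 RPKM in HFD cells, against 49.8 RPKM in control cells, a ratio of 7.42 (5.77 to 9.58), close to that of the host. Snora44, an H/ACA snoRNA by its name, stood at 951 RPKM in HFD cells, against 271 RPKM in control cells, a ratio of 3.51 (3.15 to 3.94). Snord99, the C/D box snoRNA shown above, stood at 1510 RPKM in HFD cells, against 469 RPKM in control cells, a ratio of 3.22 (2.88 to 3.62). Snora61 went the other way: it was listed at 0 in HFD cells, against 462 RPKM and 591 estimated reads in control cells.

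Gas5 was also higher in HFD cells. Gas5 (ENSMUSG00000053332, chr1:161034422-161038539, plus strand), a host known for its rise in growth-arrested cells, stood at 141 RPKM in HFD cells, against 50.9 RPKM in control cells. The ratio was 2.76 (2.63 to 2.90) and the log2 ratio 1.45, which was 0.88 when the 20 most abundant genes were left out of the scaling total. Gas5 ranked 8 among lncRNA genes in HFD cells, against 10 in control cells. The exons of all annotated isoforms together cover 91.3% of its span.

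Most Gas5 snoRNAs were listed only in control cells. All 9 in the tables were above 0 there, against 2 in HFD cells. Snord47 stood at 1295 RPKM in HFD cells, against 949 RPKM in control cells, a ratio of 1.37 (1.26 to 1.49). Gm23212 stood at 35.8 RPKM in HFD cells, against 293 RPKM in control cells, 8.18 times lower in HFD cells. The other 7 were listed at 0 in HFD cells and at 21.3 to 516 RPKM in control cells. The highest of them was Gm22357, shown above, at 516 RPKM from 421 estimated reads, followed by Gm22489 at 348 RPKM, Gm26224 at 315 RPKM and Snord80 at 290 RPKM. These 7 genes are 62 to 84 bases long and held 1290 estimated reads in all in control cells. At that length a gene at the floor of 1 RPKM holds about 2 reads in the deeper HFD library.

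**Figure D2:**
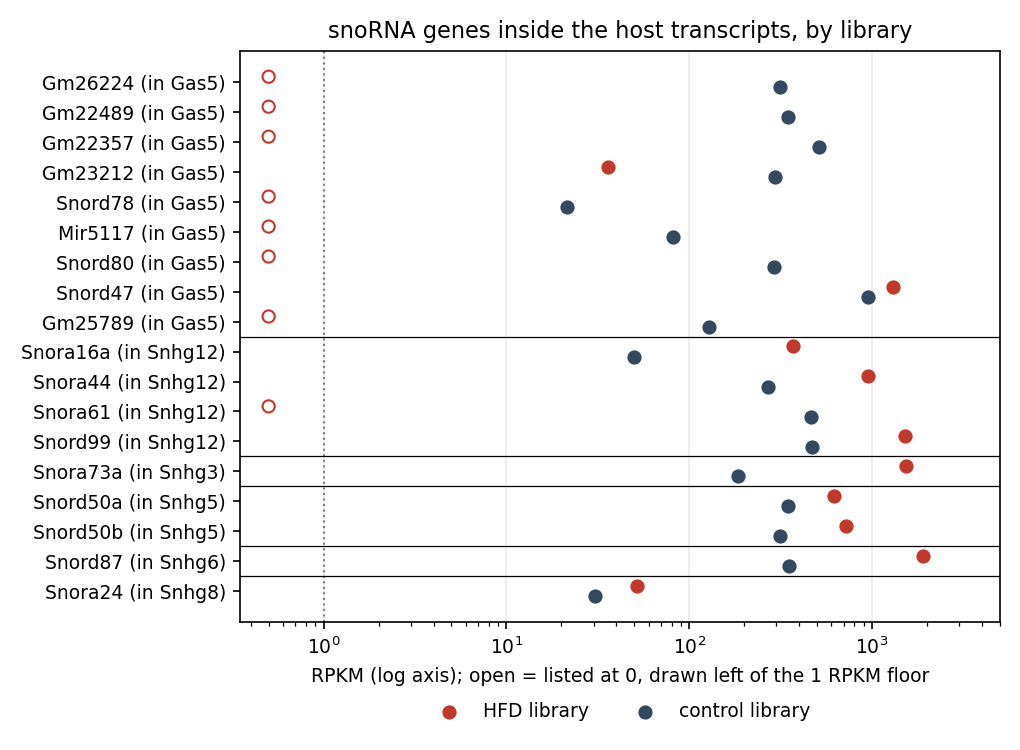
RPKM of the snoRNA genes inside the hosts that were listed in either library, grouped by host, for the HFD library and the control library on a log10 axis, with genes listed at 0 drawn at the left edge. In the HFD library 8 of the 18 genes are listed at 0, of which 7 are in Gas5 and 1 in Snhg12, and in control cells none is.

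Snhg3 and Snhg5 were not higher in HFD cells, although the listed snoRNAs inside them were. Snhg3 (ENSMUSG00000085241, chr4:132348014-132353686, minus strand) stood at 10.1 RPKM in HFD cells, against 12.5 RPKM in control cells. The ratio was 0.808, its interval of 0.647 to 1.01 included 1, and the log2 ratio was -0.28 from 253 estimated reads in HFD cells, against 121 in control cells. With gene span in place of exon length these would be 1456 reads in HFD cells, against 696 in control cells. Annotated exons cover 17.4% of the Snhg3 span, the lowest share of the hosts, and both of its snoRNAs are intronic. Snora73a, an H/ACA snoRNA of the U17 family needed for early cleavage of the ribosomal RNA precursor, stood at 1536 RPKM in HFD cells, against 185 RPKM in control cells. That ratio of 8.32 (7.50 to 9.26) was the highest among the 10 snoRNAs inside the hosts that were listed in both libraries. Snora73b was listed at 0 in both libraries. It is identical to Snora73a at 198 of 205 bases, and whether their reads could be separated was not tested.

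Genes that share the Snhg3 locus also differed. Rcc1, the chromatin-bound exchange factor of Ran, overlaps Snhg3 on the same strand and stood at 3.06 RPKM in HFD cells, against 10.05 RPKM in control cells, 3.28 times lower in HFD cells. Gm17300, an lncRNA on the opposite strand whose annotated span covers Snora73a, stood at 587 RPKM in HFD cells, against 109 RPKM in control cells, a ratio of 5.40 (5.13 to 5.68). The sources used here do not say whether reads were counted by strand, so reads of Gm17300 and of Snora73a cannot be told apart.

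Snhg5 had the lowest ratio of the 6 listed genes. Snhg5 (ENSMUSG00000097195, chr9:88521050-88522929, minus strand) stood at 2.55 RPKM in HFD cells, against 7.01 RPKM in control cells, 2.75 times lower in HFD cells. As HFD over control the ratio was 0.364 (0.281 to 0.478) and the log2 ratio -1.17, with 113 estimated reads in HFD cells, against 119 in control cells. Snord50a stood at 622 RPKM in HFD cells, against 346 RPKM in control cells, a ratio of 1.80 (1.57 to 2.07). Snord50b, shown above, stood at 721 RPKM in HFD cells, against 314 RPKM in control cells, a ratio of 2.29 (1.98 to 2.65). The pair differ at 1 of 72 aligned bases, and whether their reads could be separated was not tested. The nearest coding gene below Snhg5, Syncrip, an RNA-binding protein gene, stood at 15.9 RPKM in HFD cells, against 7.04 RPKM in control cells.

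The hosts whose own identifier was not in the tables could be followed only by their snoRNAs. Snord87, inside Snhg6, stood at 1895 RPKM in HFD cells, against 350 RPKM in control cells, a ratio of 5.41 (4.81 to 6.10). Snora24, inside Snhg8, stood at 51.9 RPKM in HFD cells, against 30.4 RPKM in control cells, a ratio of 1.70 (1.20 to 2.47). All 8 snoRNA genes inside Snhg1 were listed at 0 in both libraries. The coding gene that starts 106 bases from Snhg1 on the opposite strand, Slc3a2, which encodes the heavy chain of amino acid exchangers, stood at 35.5 RPKM in HFD cells, against 31.2 RPKM in control cells.

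Over the hosts, 18 of the 27 snoRNA genes in the tables were listed in either library and 10 in both. Of these 10, 9 were higher and 6 over 2-fold higher in HFD cells, with a median log2 ratio of 1.44. Of the 219 snoRNA genes with a value in each library, 90.4% were higher and 9.59% lower, and beyond 2-fold the shares were 76.7% higher and 1.37% lower, with a median of 1.88. Of the 18 that were listed at all, 6 passed 2-fold with HFD cells higher and 9 with HFD cells lower, the lower ones including the 8 at 0 in HFD cells. For all 340 snoRNA genes listed at all, the shares beyond 2-fold were 61.5% higher and 24.4% lower. The median log2 ratio of the 18 was -1.27, and relative to their own hosts the 16 with a listed host had a median difference of -5.19, which was -0.45 over the 8 listed in both. The first median turned to the 1.44 above when genes listed at 0 were left out, and the size of the second also depended on the pseudocount. Gas5 held 9 of the 18 and 9 of the 16, so both of these medians rest largely on that 1 host. In the other hosts the difference from the host ran from -11.6 for Snora61 to 3.33 for Snora73a.

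The estimated reads of each host and of the snoRNAs inside it were also summed, a setting added once the values were known. The sums assume that a read was counted for only 1 gene, which the sources used here do not state. The Gas5 sum was 630 reads per M in HFD cells, against 413 in control cells, a ratio of 1.53 (1.47 to 1.58), smaller than that of the host alone. The snoRNAs held 16.2% of the Gas5 sum in HFD cells, against 53.7% in control cells. The Snhg12 sum was 1112 reads per M in HFD cells, against 254 in control cells, a ratio of 4.37 (4.20 to 4.56), with a snoRNA share of 25.6% in HFD cells, against 53.7% in control cells.

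In the 2 hosts with the lowest ratios the snoRNAs held most of the sum in both libraries when host reads were taken from exon length. The Snhg3 sum was 325 reads per M in HFD cells, against 50.1 in control cells, a ratio of 6.48 (5.92 to 7.11), with a snoRNA share of 96.9% in HFD cells, against 75.5% in control cells. With gene span for the host, a further added setting, the Snhg3 sum had a ratio of 3.43 (3.22 to 3.65) and a snoRNA share of 84.7% in HFD cells, against 34.8% in control cells. The Snhg5 sum was 101 reads per M in HFD cells, against 59.7 in control cells, a ratio of 1.69 (1.55 to 1.86), with a snoRNA share of 95.6% in HFD cells, against 79.7% in control cells. All 4 sums were thus higher in HFD cells on the values as deposited. By itself Snhg5 was lower there, as was Snhg3, with an interval of 0.647 to 1.01. The sums were not tried under the other scalings. The Gas5 sum had a log2 ratio of 0.61, and leaving the 20 most abundant genes out of the total shifts the HFD library by -0.57.

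**Figure D3:**
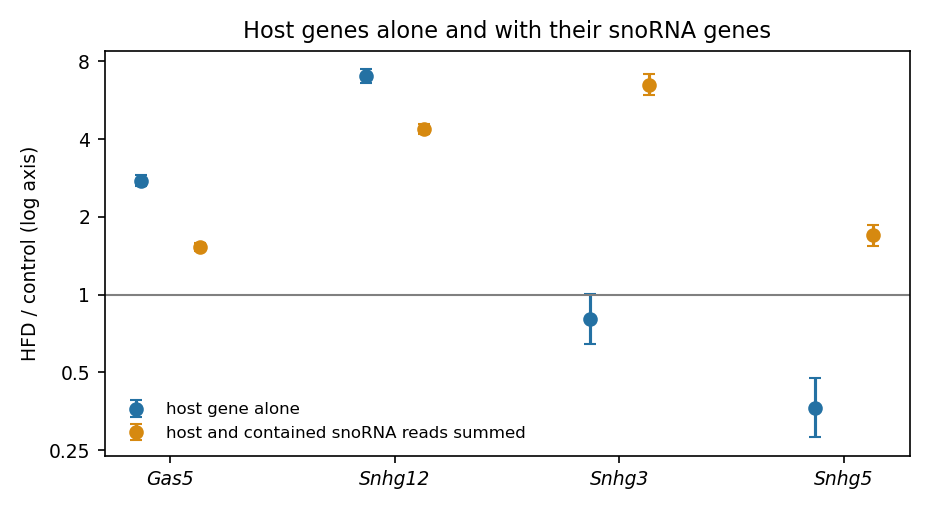
Ratio of the HFD library to the control library for the 4 listed hosts, for the host gene alone and for host and contained snoRNA reads summed, on a log axis with approximate 95% counting intervals. The summed ratio lies below that of the host alone for Snhg12 (4.37 against 7.02) and Gas5 (1.53 against 2.76), and above it for Snhg3 (6.48 against 0.808) and Snhg5 (1.69 against 0.364).

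The snoRNAs listed at 0 in HFD cells lay in annotated exons of their hosts, and this was examined over all snoRNA genes, in a grouping made after the values were seen. Of 64 snoRNA genes inside an annotated exon on the same strand with at least 20 estimated reads in control cells, 18 were at 0 in HFD cells (28.1%). Of these, 6 were in Gas5 and 1, Snora61, in Snhg12. None of 91 snoRNA genes that lay only in introns was at 0 in HFD cells, and none of 9 outside other genes. In the other direction, with at least 52 estimated reads in HFD cells, 3 of 62 exonic snoRNA genes (4.84%) and 7 of 133 intronic ones (5.26%) were at 0 in control cells, as were 4 of 19 outside other genes (21.1%).

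The hosts were also counted by where their snoRNAs lie, without a test and over snoRNAs with that many reads in either library. Of 10 listed genes of an lncRNA class in the annotation with such a snoRNA in an exon, 8 were over 2-fold higher in HFD cells, 1 of them at 0 in control cells, with a median log2 ratio of 1.53, and Snhg5 was the exception over 2-fold lower. Of 7 with intronic snoRNAs only, none was over 2-fold higher, AA465934 was over 2-fold lower and the median was -0.28. The 7 include Cct6a, which the annotation classes as a processed transcript although it is known to encode a chaperonin subunit, and without it the median of the other 6 was also -0.28. For all listed lncRNA genes the shares beyond 2-fold were 26.1% upward and 39.5% downward, and for those in both libraries 18.1% and 6.68%. Among the 8 hosts, Rian passed at 1.002, Snhg15 at 1.29 and Gas5 at 1.45. The grouping was not repeated under the other scalings, of which leaving out the 20 most abundant genes brought Gas5 to 0.88. Among protein-coding genes, 6 of 32 with an exonic snoRNA (18.8%) and 2 of 79 with intronic ones only (2.53%) were over 2-fold higher, beside 8.02% of all listed protein-coding genes. Over 2-fold lower were 4 of the 32 (12.5%) and 9 of the 79 (11.4%), beside 20.1% of all listed protein-coding genes. The lncRNA gene of the highest ratio was Rab26os, at 625 RPKM in HFD cells, against 42.8 RPKM in control cells, and the coding gene was Rpl5, of the large ribosomal subunit, at 232 RPKM in HFD cells, against 31.05 RPKM in control cells. Rab26os is antisense to Rab26, and without strand its reads cannot be told apart from those of its partner. Over all 196 listed coding genes with a snoRNA inside, 89 were higher and 107 lower, with a median of -0.09. Where an exon covers a snoRNA, reads of the snoRNA and of the host cannot be told apart by position, and the rule by which they were assigned was not stated in the sources used here.

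**Figure D4:**
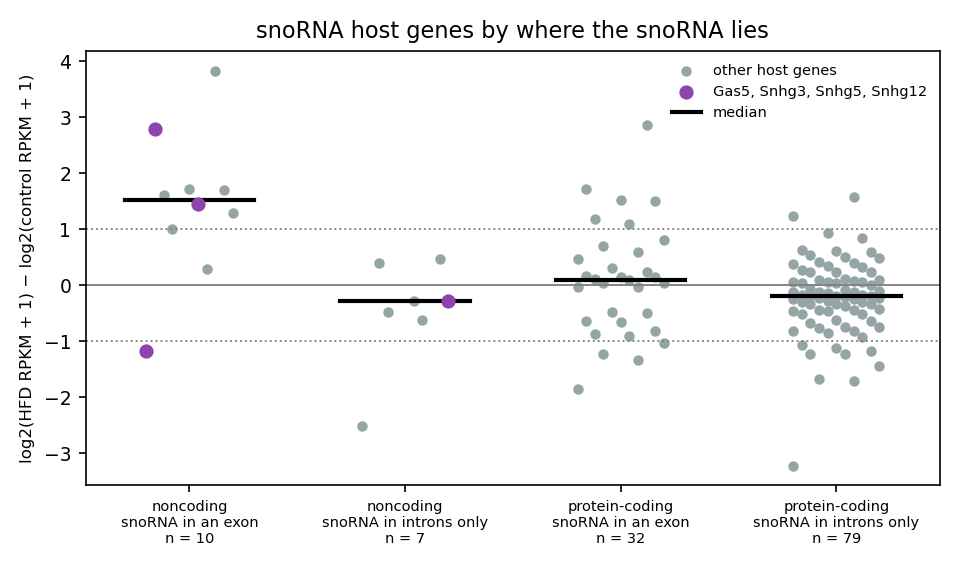
Log2 ratio, HFD library over control library on the log2(RPKM + 1) scale, of each listed lncRNA or protein-coding gene that holds a snoRNA, by whether a snoRNA lies in an annotated exon or only in introns, with the median as a bar. The 10 genes of an lncRNA class with an exonic snoRNA have a median of 1.53 and the 7 with intronic snoRNAs only a median of -0.28.

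Other noncoding hosts were compared as a list. Of 14 named, 8 were in the tables and 6 were listed, of which 5 were higher and 3 over 2-fold higher in HFD cells, with a median log2 ratio of 1.05 that ranged from 0.54 to 1.32 over the settings tried. Zfas1, host of SNORD12 family snoRNAs in human, stood at 73.3 RPKM in HFD cells, against 21.7 RPKM in control cells, a ratio of 3.37 (3.10 to 3.67). Snhg17 stood at 13.1 RPKM in HFD cells, against 3.30 RPKM in control cells, and Snhg15 at 19.8 RPKM in HFD cells, against 7.47 RPKM in control cells. Zfas1, Snhg17 and Snhg15 are the 3 over 2-fold higher and were also counted above among the hosts with an exonic snoRNA. Epb41l4aos was the one listed host of the 6 that was lower, at 4.47 RPKM in HFD cells, against 5.62 RPKM in control cells.

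Genes for the proteins that bind and assemble snoRNAs were mostly lower in HFD cells. Of 22 listed snoRNP protein and assembly genes, 5 were higher and 17 lower in HFD cells, 7 of them over 2-fold lower with 4 listed at 0 there, and the median log2 ratio was -0.53. The median stayed below 0 under every setting tried. Nop56, a core C/D box protein gene that itself holds snoRNAs, went against the list, at 79.9 RPKM in HFD cells, against 27.5 RPKM in control cells. Nhp2, a core H/ACA protein gene, stood at 16.4 RPKM in HFD cells, against 24.6 RPKM in control cells. Pih1d1, an assembly factor gene, stood at 6.58 RPKM in HFD cells, against 16.4 RPKM in control cells. Of 26 listed genes of the nucleolus and Pol I transcription, 9 were higher and 17 lower, with a median of -0.24 that lay between -0.73 and 0.04 over the settings.

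Genes that act on the spliced host were near the background. Of 18 nonsense-mediated decay genes, 7 were higher and 11 lower in HFD cells, 3 over 2-fold lower, with a median log2 ratio of -0.10. The helicase gene Upf1 stood at 15.6 RPKM in HFD cells, against 29.2 RPKM in control cells. Of 20 genes for control of TOP mRNAs and mTOR signalling, 9 were higher and 11 lower, none over 2-fold higher and 1 over 2-fold lower, with a median of -0.02. Mlst8, an mTOR complex subunit gene, had the highest ratio among those of at least 5 RPKM. It stood at 15.6 RPKM in HFD cells, against 7.97 RPKM in control cells. Ybx1, the 1 gene over 2-fold lower, stood at 30.6 RPKM in HFD cells, against 66.8 RPKM in control cells. The median of the decay genes lay between -0.60 and 0.17 over the settings, and that of the TOP control genes between -0.53 and 0.25.

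The start sites of the hosts were set beside those of ribosomal protein genes, because both groups include TOP transcripts. The windows run from 10 bases before to 20 bases from the RefSeq start on GRCm38.p6, on the transcribed strand. Capitals mark a C followed by at least 4 pyrimidines, with that C within 5 bases of the annotated start.
Gas5, chr1:161035156-161035185, plus strand: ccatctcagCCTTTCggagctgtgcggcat
Snhg12, chr4:132308668-132308697, plus strand: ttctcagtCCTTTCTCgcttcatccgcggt
Snhg3, chr4:132353667-132353696, minus strand: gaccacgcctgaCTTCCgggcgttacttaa
Snhg5, chr9:88522878-88522907, minus strand: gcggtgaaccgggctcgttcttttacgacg
Snhg8, chr3:123508317-123508346, minus strand: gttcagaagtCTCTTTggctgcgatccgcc

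A pyrimidine run of this kind was found at a RefSeq start of 4 of the 6 hosts with a promoter entry, which are Gas5, Snhg3, Snhg8 and Snhg12. It was found at 21.2% of 27025 genes with an entry and at 46.9% of 64 ribosomal protein genes. Among the other noncoding hosts it was found at 1 of the 5 with an entry (20%), near the share of all genes. No run began within 5 bases of the start of Snhg1 or Snhg5 or of the other Gas5 start. The Snhg5 window shown does hold CTTTT, but further from the start than this limit. Of the 3 hosts with both a run within this limit and a value, Snhg12 and Gas5 were higher in HFD cells and Snhg3 was lower.

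Protein-coding TOP genes were mostly lower in HFD cells. Of 79 listed cytoplasmic ribosomal protein genes, 19 were higher and 60 lower, 5 over 2-fold higher and 23 over 2-fold lower, with a median log2 ratio of -0.55. Of 20 TOP translation factor genes, 6 were higher and 14 lower, with a median of -0.40, and both medians stayed below 0 under every setting tried. Eef1a1, the elongation factor that brings tRNA to the ribosome, stood at 342 RPKM in HFD cells, against 585 RPKM in control cells. Eif4a2, an initiation helicase gene that holds snoRNAs, stood at 126 RPKM in HFD cells, against 54.9 RPKM in control cells.

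H19 was listed at 0 in both libraries. H19 (ENSMUSG00000000031, chr7:142575529-142578143, minus strand) is a maternally expressed fetal transcript that gives rise to the microRNA miR-675, and Mir675 was listed at 0 in both libraries as well. Its reciprocally imprinted neighbour Igf2 was listed at 0 in HFD cells and at 1.10 RPKM in control cells. Of 13 listed partners of H19 and imprinted growth genes, 4 were higher and 9 lower, with a median log2 ratio of -0.33. Igf2r, the imprinted receptor that clears IGF2, stood at 21.6 RPKM in HFD cells, against 19.9 RPKM in control cells, and Peg3 at 1.40 RPKM in HFD cells, against 8.22 RPKM in control cells.

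Other lncRNAs known by name and other stable RNAs give the wider setting. Of 11 listed named lncRNAs, 8 were higher in HFD cells, with a median log2 ratio of 0.54. Beyond 2-fold, 5 passed upward (45.5%) and 2 downward (18.2%), beside 26.1% and 39.5% of all listed lncRNA genes. Of the 5 upward, Mirg, Dleu2 and Mir17hg stood at 1.11 to 2.02 RPKM in HFD cells and were listed at 0 in control cells, so they were counted only through HFD cells. Rian passed upward at a log2 ratio of 1.002. Of the 2 downward, Airn was listed at 0 in HFD cells and at 2.19 RPKM in control cells. The median was 0.097 when the 20 most abundant genes were left out of the scaling total and -0.085 with a minimum of 5 RPKM in either library. Mir22hg, host of miR-22, stood at 17.5 RPKM in HFD cells, against 3.52 RPKM in control cells, a ratio of 4.98. Firre, an X-linked nuclear lncRNA, stood at 4.76 RPKM in HFD cells, against 13.5 RPKM in control cells, 2.83 times lower in HFD cells. Of 5 listed structural RNAs, 2 were higher and 3 lower, 1 of them over 2-fold higher. Rmrp, the RNA of RNase MRP, stood at 3418 RPKM in HFD cells, against 1594 RPKM in control cells, and Rn7sk, which holds back P-TEFb, at 2430 RPKM in HFD cells, against 2833 RPKM in control cells.

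For the abundant genes Malat1, Neat1 and Gas5 the protein-coding genes of most similar level were found by distance in the plane of log2 RPKM in both libraries, a likeness over 2 libraries that carries no test. Among the nearest to Malat1 were Car2 at a distance of 0.16 and Apoa1 at 0.61. Nearest to Neat1 were Casp6, Uba1 and Cnn3, at distances of 0.03 to 0.04. Nearest to Gas5 were Tmprss9, Gstk1 and Eif4a2, at distances of 0.11 to 0.19.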

How the data were processed

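Total RNA of sorted cells was depleted of ribosomal RNA and made into libraries with an Ion Torrent total RNA kit, per the labels' protocols. Each table deposited by the authors holds log2 of RPKM for 38087 genes, with genes at or below 1 RPKM listed as 0. Per the submitters' processing notes, bedtools 2.25.0 and mm10 were used. The aligner, the rule for counting reads and the gene models behind the tables are not stated there or in the labels. No counts were used.

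Values were converted to RPKM, used without rescaling and joined to GENCODE M21 (GRCm38, the assembly of mm10), which 36308 identifiers matched and 1779 did not. Depth came from the value of 1 read in RPKM times exon length. At 300 reads or fewer, 37.2% of 1421 single-exon values in the HFD library and 24.7% of 2292 in the control library were whole within 0.005 reads. For multi-exon genes the shares in HFD and control were 18.0% and 3.31% with exon length, and 1.97% and 1.26% with gene span, so exon length was used and estimated reads are approximate. A host is annotated over its exons, and a snoRNA was taken as inside it when it lay wholly in its span on the same strand.

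The comparison is HFD against control with 1 library each, so no test was run and counts are of genes beyond 2-fold. Genes named are the 10 members, the snoRNAs inside them, overlapping or neighbouring genes, the genes nearest in level, and of each list the 3 of highest mean RPKM and the highest and lowest ratio among those of at least 5 RPKM. The text names a part of these, some are not reported here, and Rab26os, Rpl5, Cct6a, AA465934 and the further snoRNAs of a host were chosen after their values were seen. The members and lists were chosen with earlier results of these data known. Alternatives were other pseudocounts, 4 other scalings and 2 filters. The calculations were tested on simulated whole read counts. Most of the values checked above were not whole, so that test does not cover the error of the estimated reads. Python 3.11.15 with pandas 2.3.3 and scipy 1.17.1 was used.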

Additional observations from a re-analysis of the deposited data

How the results depend on the processing

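No paired analysis was possible because each diet has 1 library. Scaling to a total that leaves out the 20 most abundant genes shifted log2 RPKM of the HFD library by -0.57, and scaling to the protein-coding total by 0.29. The first left 1 of the 6 listed members over 2-fold higher (2 as reported), and the second left 0 over 2-fold lower (1 as reported). Under these scalings, in that order, the median of the 4 listed hosts was 0.044 and 0.86 (0.58 as reported), that of the snoRNAs inside hosts was -1.84 and -0.98 (-1.27), and 2 and 10 of the 14 comparison lists had a median above 0 (4). The first put 1137 genes beyond 2-fold with the HFD library higher and 5508 with it lower (2000 and 3833). With at least 5 RPKM in a library, 1092 genes were higher and 1393 lower and 2 lists had a median above 0, and over genes listed in both libraries 1008 were higher and 1227 lower. Over genes listed in both, the snoRNA median reversed to 1.44. The snoRNA minus host median was -6.85 with a pseudocount of 0.1 RPKM, -5.69 with 0.5 RPKM, -4.90 under the first scaling and -0.45 over genes listed in both (-5.19). Of the 16 snoRNAs behind the value as reported, 9 lie in Gas5. Snhg5 reversed to a log2 ratio of 0.76 when the snoRNA reads inside it were added, or 0.74 with gene span for the host. That reversal follows from adding the snoRNA reads. The causes of the other shifts were not tested, beyond the genes or factors each setting removes. Snhg3 and Snhg5 rest on few reads, and a snoRNA at the floor on about 2 in the HFD library.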
